A study of Mus musculus with 4 samples.

Results

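The RNA of 10 genes known from pluripotent cells and the early embryo was followed across genotype and stage. They are the transcription factors *Pou5f1*, *Nanog* and *Sall4*, the chromatin proteins *Utf1* and *Dppa4*, the RNA-binding proteins *Lin28a*, *Lin28b*, *Trim71* and *L1td1*, and the DNA methyltransferase *Dnmt3b*. They were chosen by name, as every spot that was not a control and whose gene name equalled one of the 10, which gave 19 of 59305 spots and 10 of 37074 gene names. Whole embryos of the C57BL/6 strain, wild type (WT) or *Dyrk2*-/-, were taken at E8.5 or E10.5, where E counts the days of embryonic development, and the total RNA of each group was hybridized after Cy3 labelling to 1 Agilent one-colour array, all 4 on 1 slide. The mutant alleles were small deletions made with the CRISPR/Cas9 nickase. The labels do not say which deletion the embryos carried, and the number of embryos behind each RNA is not stated.

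*Pou5f1* and *Nanog* are part of the network that keeps epiblast cells pluripotent, and both are switched off in somatic cells after gastrulation. *Pou5f1* is among the genes that stay on in primordial germ cells. Lin28 proteins bind the precursors of the let-7 microRNAs and block their maturation, and let-7 in turn represses *Lin28a*, *Lin28b* and *Trim71*, so that the early state and the later state each hold the other down. *Dnmt3b* adds methyl groups to DNA anew and is abundant in the epiblast.

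Values are given as log2 of the probe intensity relative to the 75th percentile of the same array, so that 0 is that percentile, and a gene is represented by its brightest probe. Of the 19 spots, 12 were well above background on all 4 arrays, as the scanner software marks it, and 5 on no array. Of the 10 genes, 9 were well above background on all 4 arrays and *Dppa4* on none. The error of one value, as the scanner software estimates it for the spot, was 0.14 to 0.20 for these 9 genes, which does not cover the difference between embryos. With 1 array per group, differences between single arrays have no replicate check and no test, and 1.5-fold was used as the threshold for counting them.

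The targeted gene was examined first. At its brightest probe the log2 values of *Dyrk2* were 0.06 for WT and 0.76 for the array labelled *Dyrk2*-/- in the E8.5 pair and −0.31 and 0.34 in the E10.5 pair. The other probe had values of −0.23 and −0.20 in the E8.5 pair and of −0.28 and 0.00 in the E10.5 pair. *Dyrk2* signal was thus not lower on the arrays labelled *Dyrk2*-/- and does not check the labels, on which every direction between genotypes rests.

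Between the stages, most of the 10 genes were lower at E10.5. They had been picked as early genes that are switched off during organ formation, and with earlier results of these data known. A fall was therefore the premise of the choice, and the shares of all genes given beside the counts do not test it. In the limma fit over all 4 arrays, with genotype as a block, 7 of the 9 measured genes fell and 1 rose at an adjusted p under 0.05, against 20.5% of 20901 genes that fell and 17.2% that rose. The 1.5-fold threshold gave 7 of 9 lower in WT, against 17.5% of 21643 genes, and 7 of 9 lower in *Dyrk2*-/-, against 13.9% of 21266. It gave 1 higher in WT, where 18.8% of genes were higher, and 0 higher in *Dyrk2*-/-, where 17.6% were. The median log2 difference of the 9 genes was −1.47 in WT and −1.24 in *Dyrk2*-/-, beside −0.08 and −0.05 over all genes. When arrays were scaled by the spike-in controls, limma called 3 of the genes, *Pou5f1*, *Lin28a* and *L1td1*. The share of all genes called with that scaling is not given here. With 1 residual degree of freedom limma's adjusted p can be too small, as described under the processing.

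**Figure D1:**
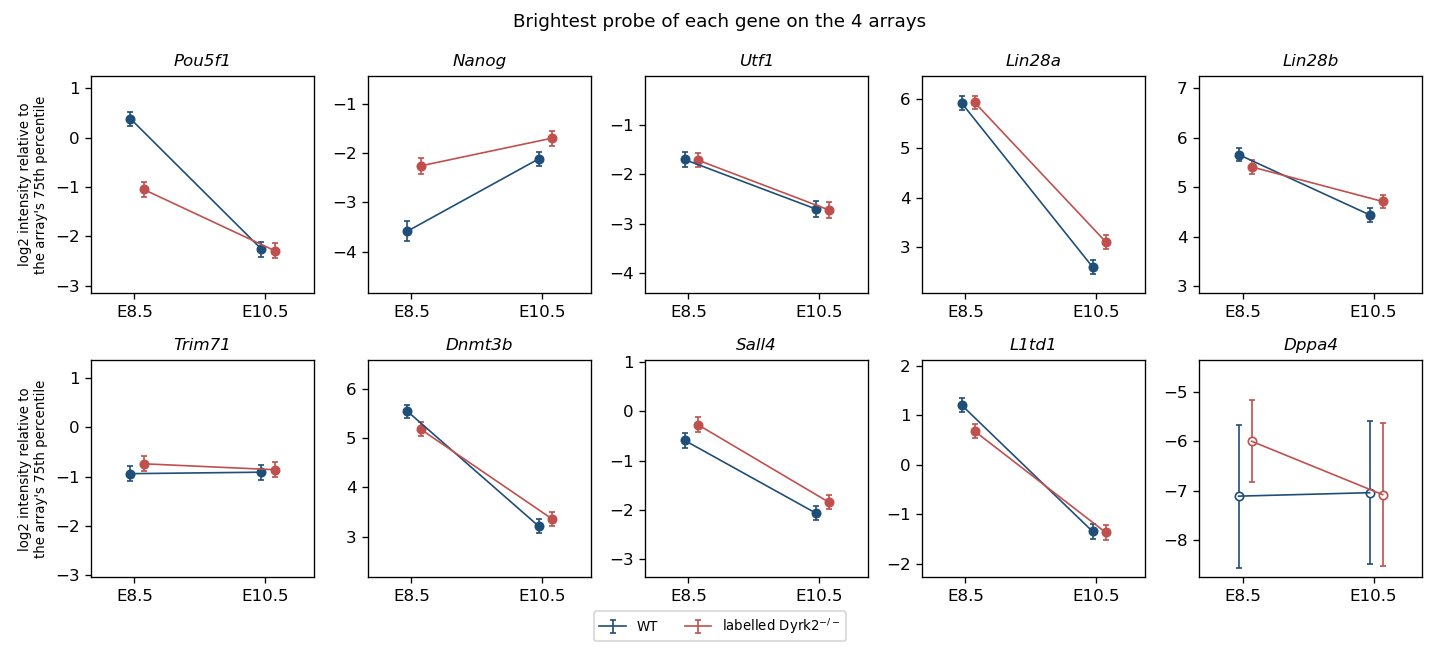
Log2 intensity of the brightest probe of each gene relative to the 75th percentile of its array (y axis, the same span of log2 units in every panel) at E8.5 and E10.5 (x axis) on the WT arrays and the arrays labelled *Dyrk2*-/-, with 1 array per point and the scanner software's error of the spot as bars; open points were not well above background. *Lin28a* goes from 5.92 to 2.60 in WT, *Trim71* stays between −0.94 and −0.74, and *Nanog* goes from −3.58 to −2.12 in WT.

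The RNA-binding proteins of the Lin28 family differed in size of change. *Lin28a* had log2 values of 5.92 in WT and 5.93 in *Dyrk2*-/- in the E8.5 pair and of 2.60 and 3.11 in the E10.5 pair. Both E8.5 arrays were thus high and both E10.5 arrays low, with a 9.99-fold lower signal at E10.5 in WT and a 7.08-fold lower one in *Dyrk2*-/- (limma log2 difference −3.07, SE 0.14, adjusted p = 1.15e-06). With spike-in scaling the log2 difference in *Dyrk2*-/- was −2.18. Ranked from the largest fall, *Lin28a* was number 170 of 21643 genes in WT and 198 of 21266 in *Dyrk2*-/-. Its other probe, 1.35, 1.25, −2.22 and −1.89 on the same 4 arrays in that order, gave 11.9-fold and 8.82-fold. *Lin28b*, the second Lin28 gene, had values of 5.66 and 5.41 in the E8.5 pair and of 4.44 and 4.71 in the E10.5 pair. It was 2.33-fold lower at E10.5 in WT and 1.63-fold lower in *Dyrk2*-/- (limma −0.96, SE 0.14, adjusted p = 0.000912), but the adjusted p was 0.962 with spike-in scaling, where the log2 difference was −1.29 in WT and −0.07 in *Dyrk2*-/-. Of its 4 probes, 2 were not well above background on any array, and the remaining dimmer one was 2.04-fold and 1.43-fold lower.

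*Trim71*, a ubiquitin ligase that binds RNA and is itself a let-7 target, differed little between the arrays. Its log2 values were −0.94 in WT and −0.74 in *Dyrk2*-/- in the E8.5 pair and −0.91 and −0.86 in the E10.5 pair. The limma difference between the stages was −0.05 (SE 0.15, adjusted p = 0.826), and the sign within either genotype changed with the scaling. *L1td1*, an RNA-binding protein derived from a LINE-1 element, had values of 1.21 and 0.68 in the E8.5 pair and of −1.35 and −1.37 in the E10.5 pair. It was 5.87-fold lower at E10.5 in WT and 4.14-fold lower in *Dyrk2*-/- (limma −2.30, SE 0.16, adjusted p = 1.3e-05). The log2 difference was −1.90 in WT with normexp background correction and −1.41 in *Dyrk2*-/- with spike-in scaling.

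Other genes of the Lin28 and let-7 pathway were counted beside all genes. Of 15 genes for the processing of let-7 and of microRNAs in general, 3 fell and 4 rose between the stages in limma, beside the 20.5% and 17.2% of all genes given above. The Argonaute gene *Ago4* rose, from −2.83 in WT and −3.70 in *Dyrk2*-/- to −1.11 and −1.39 (limma 2.02, adjusted p = 0.000137), and *Ago1* rose from 1.38 and 1.47 to 2.39 and 2.16. Of the 3 that fell, *Tarbp2* went from 5.27 and 4.95 to 4.66 and 4.66 (limma −0.45, adjusted p = 0.0217). Of 14 genes known as let-7 targets, 7 fell and 0 rose, beside the same 20.5% and 17.2%. *Nr6a1* went from 5.60 and 5.36 to 1.49 and 1.87 and *Arid3b* from 4.89 and 5.08 to 3.28 and 3.28. The let-7 microRNAs were not measured on these arrays. Their mature sequences are shown because the seed, bases 2 to 8 in capitals, is what pairs with the targets. RefSeq (GRCm38.p6) holds 10 mature let-7 sequences of this arm at 12 loci, of which 9 share the seed of let-7a and let-7j has another.
let-7a-5p: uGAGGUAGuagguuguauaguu
let-7g-5p: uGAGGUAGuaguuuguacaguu
let-7j: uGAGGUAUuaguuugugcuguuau

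Among the transcription factors, *Pou5f1* had a log2 value of 0.38 in WT and −1.05 in *Dyrk2*-/- in the E8.5 pair and of −2.26 and −2.29 in the E10.5 pair. The WT array at E8.5 was the highest, and both E10.5 arrays were lowest and close to each other. The signal was 6.20-fold lower at E10.5 in WT and 2.36-fold lower in *Dyrk2*-/- (limma −1.94, SE 0.28, adjusted p = 0.000852). With spike-in scaling the log2 difference was −2.70 in WT and −0.60 in *Dyrk2*-/- (adjusted p = 0.023). *Sall4*, a zinc finger factor of the same network, had values of −0.59 and −0.27 in the E8.5 pair and of −2.06 and −1.84 in the E10.5 pair. It was 2.77-fold and 2.97-fold lower at E10.5 (limma −1.52, SE 0.16, adjusted p = 0.000115), but the adjusted p was 0.169 with spike-in scaling, where the log2 difference was −1.54 in WT and −0.93 in *Dyrk2*-/-. Of the 3 other Sall genes, *Sall1* and *Sall3* fell and *Sall2* did not pass the test.

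A single probe measured *Pou5f1*. It lies on the plus strand at chr17:35647013-35647072 of mm9, in the part that codes for the homeodomain. RefSeq lists 7 pseudogenes of *Pou5f1*, 5 of them transcribed, and whether their RNA bound the probe was not tested. The 60 bases of the probe are shown because the *Pou5f1* values rest on them.
Pou5f1 probe: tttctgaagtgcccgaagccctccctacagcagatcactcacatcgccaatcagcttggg

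*Nanog* went the other way at its brightest probe, with log2 values of −3.58 in WT and −2.26 in *Dyrk2*-/- in the E8.5 pair and of −2.12 and −1.70 in the E10.5 pair. The limma difference between the stages was 1.01 (SE 0.25, adjusted p = 0.0124). The other *Nanog* probe stayed under the background limit on all 4 arrays. The rise thus rests on 1 dim probe, and limma did not call it without the intensity trend (adjusted p = 0.0707) or with spike-in scaling (adjusted p = 0.113). With that scaling the log2 difference was 1.38 in WT and 1.20 in *Dyrk2*-/-, and with normexp background correction 0.68 and 0.28. RefSeq lists 2 pseudogenes of *Nanog*.

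*Utf1*, a chromatin protein of pluripotent cells, had values of −1.70 and −1.71 in the E8.5 pair and of −2.70 and −2.72 in the E10.5 pair. It was 2.0-fold lower at E10.5 in WT and 2.02-fold lower in *Dyrk2*-/- (limma −1.01, SE 0.19, adjusted p = 0.00332), but the adjusted p was 0.685 with spike-in scaling, where the log2 difference was −1.07 in WT and −0.38 in *Dyrk2*-/-. Its other probe was well above background on the WT array of E8.5 alone, a difference of at least 1.59-fold from WT at E10.5. Both probes of *Dppa4*, a chromatin protein of pluripotent cells, were not well above background on any array, so no fold was computed.

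*Dnmt3b* had log2 values of 5.54 in WT and 5.18 in *Dyrk2*-/- in the E8.5 pair and of 3.22 and 3.37 in the E10.5 pair. It was 5.0-fold lower at E10.5 in WT and 3.52-fold lower in *Dyrk2*-/- (limma −2.07, SE 0.14, adjusted p = 1.09e-05), but the adjusted p was 0.0985 with spike-in scaling, where the log2 difference was −2.39 in WT and −1.18 in *Dyrk2*-/-. A second probe, 3.57 and 3.52 in the E8.5 pair and 1.29 and 1.33 in the E10.5 pair, gave 4.87-fold and 4.56-fold. Its paralog *Dnmt3a* rose, from 0.66 and 0.96 to 2.84 and 2.48 (limma 1.85, adjusted p = 5e-05). Of 11 genes besides *Dnmt3b* that write, read or erase DNA methylation, *Dnmt3a* among them, 4 fell and 3 rose, where 20.5% of all genes fell and 17.2% rose.

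Further pluripotency genes were read from lists of core and primed and of naive factors. Of the 18 core and primed factors, 7 fell and 1 rose, and of the 12 naive factors that were tested, 4 fell and 3 rose, where 20.5% of all genes fell and 17.2% rose. *Fgf4*, a growth factor of the epiblast, went from 0.51 and 0.07 to −2.62 and −3.47. *Sox2*, which has later roles in the neural tube, had values of 3.08, 2.93, 3.12 and 3.03 and did not pass the test.

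Between the genotypes at E8.5, *Pou5f1* and *Nanog* were past 1.5-fold at the brightest probe. *Pou5f1* was 2.69-fold lower in *Dyrk2*-/- and number 295 of 20709 genes from the largest fall, and over all the settings tried its log2 difference lay between −1.97 and −1.15. *Nanog* was 2.49-fold higher at the 1 probe that measured it, where its log2 difference was 0.77 with spike-in scaling and 0.67 with normexp background correction. The count was thus 1 of 9 lower, against 6.50% of genes, and 1 of 9 higher, against 5.14%, and the median log2 difference of the 9 genes was 0.00, beside −0.02 over all genes. *L1td1* was 1.45-fold lower, *Dnmt3b* 1.28-fold lower and *Lin28b* 1.19-fold lower at its brightest probe. The other *Lin28b* probe well above background was 1.62-fold lower, past the threshold. With spike-in scaling the log2 differences of *L1td1*, *Dnmt3b* and *Lin28b* were −1.08, −0.90 and −0.80, all past 1.5-fold. Over all genes, however, 9851 were 1.5-fold or more lower with that scaling, against 1346 with the percentile scaling. The median of all genes was then −0.57, so that passing 1.5-fold there does not set these 3 genes apart. *Sall4* was 1.25-fold higher and *Trim71* 1.15-fold higher, but both were lower with spike-in scaling, which moved the median of all genes by −0.55.

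At E10.5 none of the 9 genes was past 1.5-fold between the genotypes at its brightest probe, where 4.22% of 21209 genes were lower and 3.50% higher. The median log2 difference was 0.15, beside 0.00 over all genes. In *Dyrk2*-/- *Lin28a* was 1.42-fold higher, *Nanog* 1.34-fold higher and *Lin28b* 1.2-fold higher, and *Pou5f1* was 1.02-fold lower, with the opposite sign under spike-in scaling. The other *Lin28b* probe was 1.13-fold lower. With spike-in scaling *Lin28a* and *Nanog* were past 1.5-fold, with log2 differences of 0.67 and 0.59. Over all genes, 1238 were 1.5-fold or more higher with that scaling, against 743 with the percentile scaling. The comparisons between genotypes and those between stages share arrays, so that the WT array of E8.5 enters both the genotype difference of *Pou5f1* at E8.5 and its stage difference in WT.

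In the limma fit of genotype over both stages, 0 of the 9 genes passed, against 0.0287% of 20901 genes. At an unadjusted p under 0.05 there were 2, *Pou5f1* and *Nanog*, beside 1592 of the 32289 probes in the fit. The log2 difference of *Pou5f1* was −0.73 (SE 0.28, adjusted p = 0.969) and that of *Nanog* 0.87 (SE 0.25, adjusted p = 0.664). *Pou5f1* passed without scaling between arrays (adjusted p = 0.000464) and without the filter on dim probes (adjusted p = 0.0214). In these fits the limma adjusted p of *Lin28a* between the stages was 4.77e-39 and 5.39e-125, against 1.15e-06 in the main fit. The share of all genes that passed with these settings is not given here, so that the passes do not set *Pou5f1* apart.

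Markers of several cell types also differed between these arrays. The brightest marker of a list is the one whose probe had the highest mean signal over the 4 arrays, which need not be the highest on each array or the most abundant RNA. The 5 red cell markers, of which *Hbb-bh1* was the brightest, had a summed intensity, relative to the 75th percentile of the array, of 12.9 in WT and 259.5 in *Dyrk2*-/- in the E8.5 pair and of 808 and 963 in the E10.5 pair. The 7 yolk sac endoderm markers, with *Afp* the brightest, summed to 49.7 and 32.2 at E8.5, where *Rbp4* had more signal, and to 20.7 and 17.1 at E10.5. The later sums follow *Afp*, which rose in limma, while the other 6 fell, *Cubn* by 36.1-fold in WT and 18.2-fold in *Dyrk2*-/-. At E8.5 all 7 were lower in *Dyrk2*-/-, 6 of them by 1.5-fold or more, against 6.50% of all genes. At E10.5 none of these markers was past 1.5-fold between the genotypes. The 5 markers of the tail end, with *Fgf8* the brightest, summed to 16.1 and 13.9 and then to 2.56 and 2.39, and *Cdx4* and *Nkx1-2* were not well above background at E10.5. At E8.5 all 5 were lower in *Dyrk2*-/-, but only *Nkx1-2* by 1.5-fold or more (1.55-fold), against 6.50% of all genes. Of the 3 compared at E10.5, only *T* was past 1.5-fold, 2.81-fold lower, against 4.22% of all genes. *Fgf8* was 1.01-fold higher there. The 9 primordial germ cell markers, with *Kit* the brightest, summed to 7.20 and 7.76 and then to 5.71 and 5.25, and *Dazl* stayed under the background limit on all 4. The higher sum in *Dyrk2*-/- at E8.5 follows *Kit*, the only one of the 8 markers compared there that was higher, by 1.32-fold. *Dppa3* was at least 2.04-fold lower, and the remaining 6 differed by 1.02-fold to 1.24-fold, under the threshold like *Kit*. Between the stages *Prdm1*, *Kit* and *Ddx4* fell in limma, while *Nanos3* rose, 3.31-fold in WT and 3.28-fold in *Dyrk2*-/-. At E10.5 *Ddx4* was 1.81-fold and *Prdm14* 1.78-fold lower in *Dyrk2*-/-, and no germ cell marker was past 1.5-fold higher. The 7 trophoblast and decidua markers, with *Plac1* the brightest, summed to 1.31 and 1.37 and then to 0.611 and 0.523, and *Tpbpa* and *Cts7* were not well above background on any array. These markers moved both ways, with *Prl8a2* 2.72-fold and *Prl3d1* at least 6.62-fold higher and *Elf5* 1.82-fold lower in *Dyrk2*-/- at E8.5, and *Prl3b1* rose between the stages. The 9 markers of neural, heart and somite tissue, with *Myl7* the brightest, summed to 101 on both arrays of E8.5 and to 48.1 and 50.1 at E10.5, and *Myf5* stayed under the background limit on all 4 arrays. The sums follow the heart markers, of which *Myl7*, *Tnnt2* and *Nkx2-5* fell, and the somite marker *Meox1* fell as well. Of the neural markers *Neurog2* rose, 9.30-fold in WT and 4.26-fold in *Dyrk2*-/-, and *Sox1* and *Pax6* did not pass the test. At E8.5 *Neurog2* was 1.81-fold higher in *Dyrk2*-/-, the only 1 of the 8 measured markers past 1.5-fold. The part of these tissues in the values of the 10 genes was not tested, and fewer cells of a type and less RNA per cell cannot be told apart in whole embryos.

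**Figure D2:**
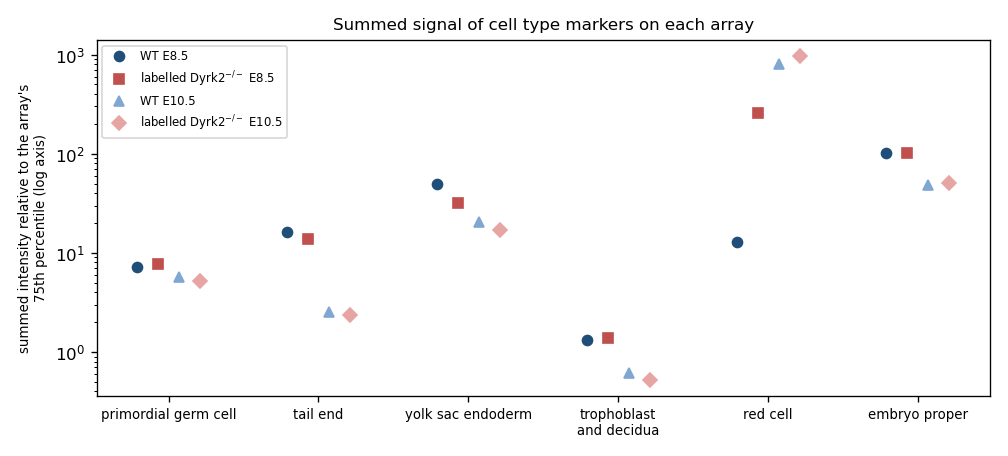
Summed intensity of the markers of 6 cell types relative to the 75th percentile of the array (y axis, log scale), with 1 point for each of the 4 arrays. The red cell markers lie at 12.9 on the WT array of E8.5 and at 259.5 on the *Dyrk2*-/- array of the same stage.

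Sex-linked genes, picked after their values had been seen, set the E10.5 arrays apart. *Xist*, made from an inactive X chromosome, passed the background limit for *Dyrk2*-/- at E10.5 and nowhere else, whereas the Y-linked *Kdm5d*, *Uty*, *Ddx3y* and *Eif2s3y* passed it for the remaining 3 groups. The *Dyrk2*-/- array of E10.5 enters the genotype comparison at E10.5, the stage comparison in *Dyrk2*-/- and the limma fit. The part of sex in the *Lin28a* and other values of these comparisons was not tested.

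The genes whose pattern lay closest to the mean of the 9 genes were *Smoc2*, *Tmem229a*, *Ptgis*, *Myl7* and *Pcbd1*, of 18677 other genes well above background on all 4 arrays. The measure was the Euclidean distance of 4 log2 values centred on their own mean, which was 0.05 for *Smoc2* and 0.07 for *Pcbd1*. Single members lay further from that mean, from 0.35 for *Utf1* and *Sall4* to 1.77 for *Lin28a* and 2.54 for *Nanog*.

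The promoters were read for letters of known motifs, in the 250 bases before each start that RefSeq lists (GRCm38.p6), on both strands. RefSeq gave 10 such promoters for 8 of the 10 genes, with more than 1 start for *Nanog* and *Pou5f1*, and none was used for *Sall4* and *Dppa4*. The 7 motifs searched were the octamer ATGCAAAT, its shorter form TTTGCAT, whose letters are contained in the octamer on the other strand, the GC box with the letters GGGCGG, the TATA box with the letters TATAAA, the E box with the letters CACGTG, the CAAT box with the letters CCAAT, and the nuclear receptor core with the letters AGGTCA. The GC box was found in 4 of these 10 promoters, against 32.7% of all 32851, and the CAAT box in 3, against 33.8%. The nuclear receptor core was found in 2, against 14.0%, and the E box in 1, against 6.02%. The shorter form of the octamer was found in 2, against 4.12%, which are the overlapping promoters of *Nanog*. The octamer, in 1.60% of all promoters, and the TATA box, in 12.4%, were found in 0 of the 10. Of the promoters of *Pou5f1*, the one at chr17:35505782-35506031, plus strand, is shown because this gene differed most of the 9 measured genes between the genotypes at E8.5, at their brightest probes, with the matches of the GC box, the nuclear receptor core and, on the other strand, the CAAT box in capitals. The other one, at chr17:35508557-35508806, held a match of the CAAT box and none of the GC box or the receptor core. The product of *Nr6a1* is one of the nuclear receptors that bind such a core, and a match of letters is no evidence of binding.
Pou5f1 promoter: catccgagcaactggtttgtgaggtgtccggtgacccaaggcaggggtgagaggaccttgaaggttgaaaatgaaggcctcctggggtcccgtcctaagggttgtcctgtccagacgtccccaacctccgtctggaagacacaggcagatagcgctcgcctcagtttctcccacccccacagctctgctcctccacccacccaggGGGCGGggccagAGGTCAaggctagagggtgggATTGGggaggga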

How the data were processed

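The authors deposited linear scanner intensities, background-subtracted and unscaled between arrays (Agilent Feature Extraction, 9.5.1.1 per the submitters' notes and 10.7.1.1 per the file headers), and a table of intensities with 1 shared distribution. Log2 intensities, outlier spots left out, were averaged by probe and set relative to the 75th percentile of the array. Of 56604 probes, 31370 (WT) and 30226 (*Dyrk2*-/-) passed background in the E8.5 pair, and 31818 and 31943 in the E10.5 pair. No spot was saturated, and spots of 1 probe had a median SD of 0.073 to 0.118 (log2). The number of arrays limits the precision. A pair was compared where a probe passed background on either array. Where it failed on one, the fold is a bound, taken against its value there or, if higher, the lowest value that passed on that array. Probe coordinates follow the annotation supplied with the array (mm9).

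Genotype and stage were fitted together in limma 3.58.1 (eBayes, intensity trend, R 4.3.3) on 32289 probes that passed background on at least 2 arrays, leaving 1 residual degree of freedom, with Benjamini-Hochberg adjustment over all. The fit was tested on simulated data with 3 models of noise. It gave back the sizes of the changes under each, but the changes it called depended on the model: none with heavy tails, tried first, all after the tails were made lighter, and most with the variances estimated from these arrays, which is the model relied on. More false calls were made there than the adjusted p allows, since limma overestimated how alike the variances of probes are. Adjusted p-values are therefore too small by an unknown amount, and a gene that did not pass may still differ.

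The 10 genes and the lists were chosen with earlier results of these data known. Named besides them are *Dyrk2*, up to 4 genes of each list with the largest difference in a comparison, and the 5 nearest genes in pattern. *Sox1*, *Sox2*, *Pax6*, *Sall2*, *Meox1*, the sex-linked genes, *Afp*, *Cdx4*, *Dppa3*, *Prl3d1* and the markers under background on all arrays (*Dazl*, *Tpbpa*, *Cts7*, *Myf5*) fall outside this rule and were named after their values had been seen. Alternatives were quantile normalization, no scaling, spike-in scaling (7 of 10 control probes), normexp with an offset of 50, the deposited table, a filter on all 4 arrays, no filter, averaging all probes of a gene, a 2-fold threshold and limma without the trend. Python 3.11.15, numpy 2.4.6, pandas 2.3.3 and matplotlib 3.10.9 were used.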

Additional observations from a re-analysis of the deposited data

Results flagged for a closer look

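*Lin28b* and *Dnmt3b* stood on opposite sides of WT at the 2 stages at their brightest probes. In *Dyrk2*-/- minus WT, the log2 difference of *Lin28b* was −0.25 for the E8.5 pair and 0.26 for the E10.5 pair, and that of *Dnmt3b* was −0.36 and then 0.15. The other *Lin28b* probe well above background stood lower than WT in both pairs, −0.69 and −0.18, and the second *Dnmt3b* probe at −0.05 and 0.04, so that the opposite sides of *Lin28b* depend on the probe. *Trim71* had a log2 difference, E10.5 minus E8.5, of 0.02 in WT and −0.12 in *Dyrk2*-/-. With 1 array per group none of these differences was tested, and each was under 1.5-fold except that of the other *Lin28b* probe at E8.5, 1.62-fold. With spike-in scaling the E8.5 differences at the brightest probes were −0.80 for *Lin28b* and −0.90 for *Dnmt3b*, past 1.5-fold. That scaling put 9851 of all genes 1.5-fold or more lower at E8.5, against 1346 with the percentile scaling.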

How the results depend on the processing

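At E8.5, between genotypes, the genes 1.5-fold or more lower numbered 3 without scaling and 4 with spike-in scaling, against 1, and those higher numbered 2 without a filter and 0 as the mean over all probes, against 1. Over all genes, 3177 were lower without scaling and 9851 with spike-in scaling, against 1346. The median log2 difference of the 9 genes at E8.5 was −0.26 without scaling and −0.55 with spike-in scaling. At E10.5, 2 genes were higher with spike-in scaling and 2 as the mean over all probes, against 0, and the median was 0.02 without scaling and 0.31 with spike-in scaling. Over all genes, 1238 were higher at E10.5 with spike-in scaling, against 743. Between stages in WT, 0 genes were higher as the mean over all probes, against 1, and the median was −1.29 without scaling, −1.12 with normexp, −1.35 without a filter and −1.74 as the mean over all probes. In *Dyrk2*-/-, 1 gene was higher without scaling and 1 with spike-in scaling, against 0, and the median was −0.93 without scaling, −0.60 with spike-in scaling and −0.92 with normexp. Over all genes, 6025 were higher in *Dyrk2*-/- without scaling and 10646 with spike-in scaling, against 3734. limma called 3 genes between stages with spike-in scaling, against 8, and 1 between genotypes without scaling and 1 without a filter, against 0. The share of all genes that limma called with these settings is not given here, so that these counts do not set the genes apart. *Nanog* in WT turned to −0.10 as the mean over all probes, of which 1 was not above background, so that this mean does not test the rise. The causes of the other changes were not tested. The other 99 values of this kind moved by less than 1.5 times for a count or less than the spread between spots for a median. No scaling and spike-in scaling moved the median of all genes by −0.26 and −0.55 between genotypes at E8.5 and by 0.31 and 0.64 between stages in *Dyrk2*-/-. Spike-in scaling changed the share of higher among called genes at E8.5 from 44.1% to 2.85%. Signal close to background limits *Nanog* and the second *Utf1* probe.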
